A study of Homo sapiens with 4 samples.

Results

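SUGCT, SP140, CCDC148, CSMD3, ANOS1, MARCH4 and KATNBL1 are 7 of the 36601 genes in the deposited tables. They were chosen by their IR over UT fold changes in these same data, so their differences between IR and UT are given as a description, without a test. The choice did not directly use how the transcripts vary with cell cycle state or with p53 target genes inside each library, which was tested here. Nor did it directly use how they are spread over cells, which is described. Cells low in cycle transcripts were more frequent in IR than in UT, and p53 targets were higher in IR. The choice could therefore favour genes that vary with either, and the shares over all genes set beside the calls do not allow for this. The cells are U-2 OS, a human osteosarcoma line with wild-type p53. IR cells received 4 Gy of ionizing radiation and UT cells were left untreated. The study's design text and methods place irradiation 48 h before sorting, whereas the treatment label of the IR libraries reads 24 h. Live single cells were sorted into plates and sequenced by SORT-seq, a plate-based method that counts the 3′ ends of transcripts with unique molecular identifiers (UMIs). Each of 2 experiments gave 1 IR library and 1 UT library. The study describes its sequenced sample sets as independent, whereas the labels do not say whether the experiments used separate cultures, and tests here cover only the spread among these 4 libraries.

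Ionizing radiation breaks DNA, and the break signal stabilizes p53, a transcription factor that switches on genes for cell cycle arrest (CDKN1A, encoding p21, and GADD45A), for its own turnover (MDM2), for death receptor signalling (FAS), for RNA control (ZMAT3) and for a secreted stress factor (GDF15). Cells that stop cycling lose the transcripts of DNA replication and mitosis, so p53 target level and cycle state are linked. The 7 genes do unrelated work. SUGCT encodes a mitochondrial enzyme that attaches coenzyme A to glutarate, a breakdown product of lysine and tryptophan, and its loss causes glutaric aciduria type III. SP140 encodes a chromatin reader of nuclear bodies, best known from immune cells and induced by interferon. KATNBL1 encodes a protein related to the regulatory subunit of katanin, which severs microtubules. CCDC148 encodes a coiled-coil protein of unknown function. CSMD3 encodes a very large membrane protein with CUB and Sushi domains, ANOS1 encodes anosmin-1, a secreted matrix glycoprotein that modulates FGF receptor signalling and is mutated in Kallmann syndrome, and MARCH4 (current symbol MARCHF4) encodes a membrane-bound ubiquitin ligase.

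The genes are scattered over the genome. By Ensembl identifier in GENCODE 44 on GRCh38, the build of the files, SUGCT spans chr7:40135005-40860763 on the plus strand, SP140 spans chr2:230203110-230313215 on the plus strand, CCDC148 spans chr2:158171073-158456753 on the minus strand, ANOS1 spans chrX:8528874-8732137 on the minus strand, MARCH4 spans chr2:216257865-216372483 on the minus strand and KATNBL1 spans chr15:34140674-34210096 on the minus strand. RefSeq promoter sequences on GRCh38.p14, from 250 bases before to 50 bases after the annotated start, were matched for 6 of the 7 genes, and CSMD3 is named only. The RefSeq start used for SP140 lies inside its GENCODE span, which begins farther upstream. None of the 6 promoters held the p53 half-site consensus, which 6.63% of all 35116 promoters of the same length held on either strand, nor the interferon-response core GAAANNGAAA, which 3.57% held, nor TATAAA, which 11.5% held. GGGCGG, the GC box, occurred 2 times in the SUGCT promoter, 3 times in CCDC148, where 2 matches overlap, and 3 times in KATNBL1, against 45% of all promoters with at least 1 match. CCAAT occurred 3 times in the CCDC148 promoter and once each in those of SP140 and ANOS1, against 34.6% of all promoters. The promoters also differed in base composition: SUGCT, CCDC148, ANOS1 and KATNBL1 had 27 to 32 CG dinucleotides in 300 bases, whereas SP140 had 5 and MARCH4 had 6, with a median of 14 over all promoters. The last 190 bases before the start and the first 10 after it are shown for the 4 genes whose level in irradiated cells varied with p53 targets. They read 5′ to 3′ on the gene's strand, with GC boxes and CCAAT boxes of either strand in capitals.
SUGCT: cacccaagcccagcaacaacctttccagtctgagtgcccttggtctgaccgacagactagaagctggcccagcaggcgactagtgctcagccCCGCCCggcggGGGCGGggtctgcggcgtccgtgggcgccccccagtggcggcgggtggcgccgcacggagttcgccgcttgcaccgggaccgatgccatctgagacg
KATNBL1: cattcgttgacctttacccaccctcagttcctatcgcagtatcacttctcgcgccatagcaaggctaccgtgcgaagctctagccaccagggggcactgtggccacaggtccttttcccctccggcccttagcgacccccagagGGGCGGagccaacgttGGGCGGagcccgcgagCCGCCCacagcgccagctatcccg
SP140: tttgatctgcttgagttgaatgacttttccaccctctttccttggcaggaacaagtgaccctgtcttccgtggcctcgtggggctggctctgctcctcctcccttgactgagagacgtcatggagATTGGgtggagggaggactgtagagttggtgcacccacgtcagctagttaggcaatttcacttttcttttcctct
CCDC148: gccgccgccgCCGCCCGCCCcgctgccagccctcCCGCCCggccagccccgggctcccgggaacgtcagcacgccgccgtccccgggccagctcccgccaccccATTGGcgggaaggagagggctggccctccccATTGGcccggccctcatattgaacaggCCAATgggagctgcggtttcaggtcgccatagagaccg
These 4 stretches lie at chr7:40134815-40135014 (plus strand), chr15:34210087-34210286 (minus strand), chr2:230225546-230225745 (plus strand) and chr2:158456744-158456943 (minus strand). No motif was common to all 4, and a match or its absence in this window says nothing about which factors act there.

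The tables held 247 and 248 IR cells and 358 and 367 UT cells, with 5736339 to 6810079 gene counts per library. Cells of the IR libraries were deeper, with medians of 20181 and 22035 counts per cell, against 15662 and 17627 in the UT libraries, so shares of cells and all comparisons inside libraries used cells thinned to 8000 UMIs (231, 232, 333 and 356 cells kept). The libraries shared 173 to 350 cell barcodes pairwise, which in a plate method are well barcodes drawn from one set. The osteoblast-lineage markers RUNX2, COL1A1 and SPARC were detected in each library, SP7 was at 0 in each library, and the 10 markers summed to 3402 and 2935 CPM (counts scaled to a total of 1000000) in IR and 3533 and 2784 CPM in UT. The 9 blood-cell markers summed to 1.40 and 15.4 CPM in IR and 0.852 and 13.7 CPM in UT, so both libraries of experiment 2 held more of these traces than those of experiment 1, with HBB at 0 throughout.

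SUGCT had the largest ratio of the 7 genes. Its level was 98.5 and 113 CPM in the IR libraries of experiments 1 and 2, against 8.52 and 11.0 CPM in the UT libraries, 11.6-fold and 10.3-fold within the experiments. The mean was 106 ± 10.4 CPM in IR and 9.77 ± 1.76 CPM in UT (SD, n = 2 each). Per cell, without scaling to depth, SUGCT had 2.29 and 2.82 counts in IR cells, against 0.140 and 0.204 in UT cells. At 8000 UMIs, 39.4% and 43.97% of IR cells held a SUGCT UMI, against 5.11% and 7.58% of UT cells. The exact 95% binomial intervals were 33.1% to 46.0% and 37.5% to 50.6% in IR and 3.00% to 8.05% and 5.06% to 10.8% in UT, and they cover counting error only. Both IR shares lay above both UT shares at the same number of UMIs per cell, which the choice of the gene had favoured and which is not a test.

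SP140, the chromatin reader, had 33.5 and 39.0 CPM in the IR libraries, against 4.77 and 4.26 CPM in the UT libraries. Its mean was 36.2 ± 3.89 CPM in IR and 4.52 ± 0.363 CPM in UT (SD, n = 2 each), and 16.02% and 21.98% of IR cells held a UMI, against 3.30% and 2.25% of UT cells. The IR over UT ratio of SP140 was 7.02-fold in experiment 1 and 9.15-fold in experiment 2, whose libraries of both groups held more blood-cell traces. Whether these traces bear on the SP140 values was not tested. SP140 overlaps a neighbour, SP110, whose gene lies on the opposite strand with 1 exon that overlaps an SP140 exon, and the strand setting of the counting is not given in the sources used here, so reads from the shared stretch cannot be told apart.

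KATNBL1 was the most abundant of the 7 and had the smallest ratio. It had 118 and 119 CPM in the IR libraries, against 33.4 and 47.7 CPM in the UT libraries, and the spread between the UT libraries (40.6 ± 10.1 CPM, SD, n = 2) was wider than that between the IR libraries (118 ± 0.347 CPM, n = 2). The ratio was 3.54-fold in experiment 1 and 2.49-fold in experiment 2. A KATNBL1 UMI was present in 40.7% and 41.8% of IR cells at 8000 UMIs, against 23.1% and 23.0% of UT cells, the highest UT shares of the 7 genes. CCDC148, the coiled-coil protein gene, was rare: it had 33.1 and 27.3 CPM in IR libraries, against 3.58 and 3.08 CPM in UT libraries, where the summed counts were only 21 and 21. A CCDC148 UMI was found in 21.6% and 15.5% of IR cells, against 3.00% and 1.69% of UT cells.

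The remaining 3 genes act at membranes or outside the cell. CSMD3 had 41.5 and 31.2 CPM in the IR libraries, against 4.60 and 3.82 CPM in the UT libraries, or 36.3 ± 7.28 CPM against 4.21 ± 0.554 CPM (SD, n = 2 each). ANOS1 had 66.5 and 63.5 CPM in the IR libraries, against 15.7 and 16.9 CPM in the UT libraries, 4.24-fold and 3.76-fold. MARCH4 had 56.7 and 53.7 CPM in the IR libraries, against 14.3 and 14.2 CPM in the UT libraries, 3.96-fold and 3.77-fold. For each of the 7 genes both IR libraries lay above both UT libraries. Cells with a CSMD3 UMI made up 22.5% and 24.1% of IR cells, against 3.60% and 2.81% of UT cells. The shares were 29.9% and 28.0% in IR and 9.01% and 11.5% in UT for ANOS1, and 32.9% and 25.9% in IR and 9.01% and 9.83% in UT for MARCH4. Thinning to 5000 UMIs lowered the shares and no thinning raised them, and in both cases each IR share stayed above each UT share of the same gene (for SUGCT, 32.8% and 34.6% against 3.66% and 4.38% at 5000 UMIs, and 62.8% and 67.3% against 9.78% and 13.6% without thinning).

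Scaling did not turn any of these ratios round. Divided by the spike-in RNA of the same library instead of by the total, SUGCT was 19.3-fold and 13.1-fold higher in IR than in UT in experiments 1 and 2, and KATNBL1 was 5.89-fold and 3.16-fold higher. The spike-in made up 0.191% and 0.952% of counts in the IR libraries and 0.318% and 1.21% in the UT libraries, so this scale compares libraries within an experiment only. ANOS1 was 7.06-fold and 4.79-fold higher and MARCH4 6.59-fold and 4.79-fold higher on it, which keeps the 7 genes in 2 sets by size, with SUGCT, CCDC148, CSMD3 and SP140 above 10-fold in both experiments and the other 3 below.

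**Figure D1:**
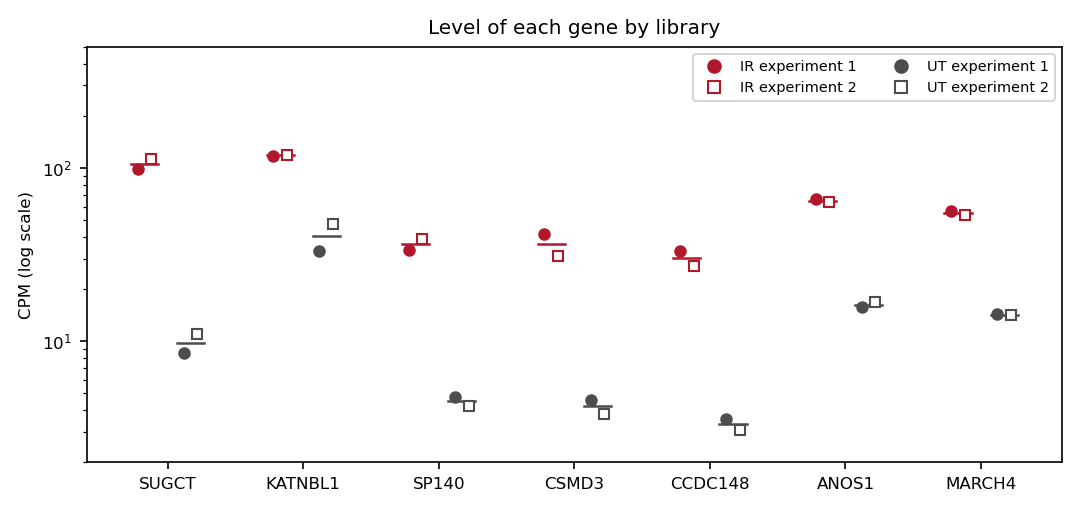
Level of the 7 genes in CPM on a log axis, by library (IR in red, UT in grey, circles for experiment 1, open squares for experiment 2, bars for the mean of 2 libraries). Both IR libraries lie above both UT libraries for each gene, from SUGCT (98.5 and 113 against 8.52 and 11.0) to KATNBL1 (118 and 119 against 33.4 and 47.7).

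**Figure D2:**
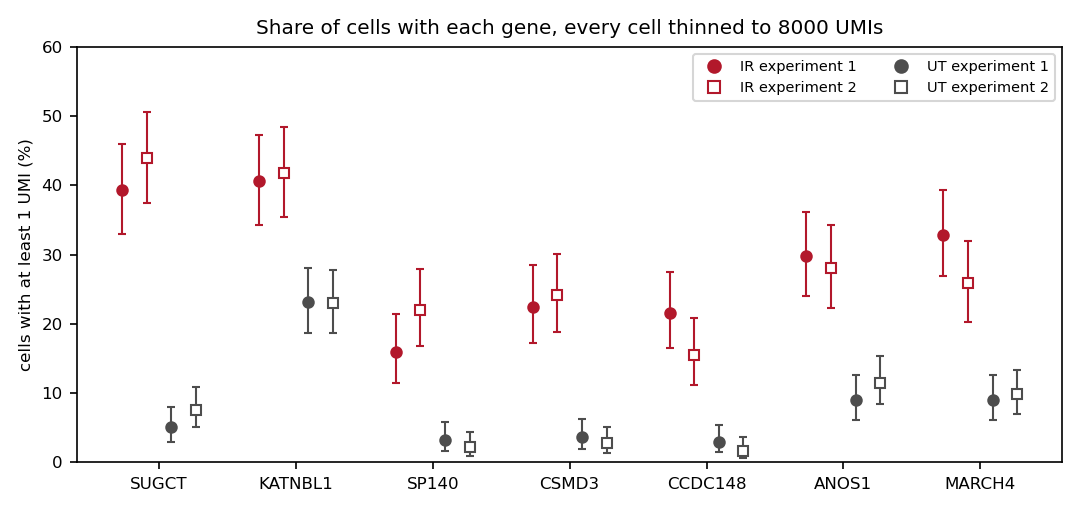
Percentage of cells with at least 1 UMI of each gene after every cell was thinned to 8000 UMIs, by library, with exact 95% binomial intervals. IR shares run from 15.5% (CCDC148, experiment 2) to 43.97% (SUGCT, experiment 2), and UT shares from 1.69% (CCDC148, experiment 2) to 23.1% (KATNBL1, experiment 1).

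In the fit across all genes (edgeR quasi-likelihood test, Benjamini-Hochberg adjusted p under 0.05), 239 of 14647 genes, 1.63%, were higher in IR and 124 were lower. All 7 were tested and all 7 were among the 239, which the choice of the genes had fixed and from which nothing is read. With the experiment number as a replicate block, 2094 genes were higher and 1883 lower, the same 7 among the higher. Among the 40 p53 targets, 39 were tested and 19 were higher and none lower (38 higher with the block), with a median log2 fold change of 1.04, against -0.003 over all genes tested. Of the 6 p53 targets set beside the 7 genes, CDKN1A had a log2 fold change of 1.56 (SE 0.168) and MDM2 1.47 (SE 0.196), while GDF15 reached 3.72 (SE 0.293). The log2 fold changes of SUGCT (3.35), CCDC148 (3.10), CSMD3 (3.03) and SP140 (2.92) lay between those of FAS (1.79) and GDF15, and those of ANOS1 (1.92), MARCH4 (1.87) and KATNBL1 (1.47) lay near that of FAS or MDM2.

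The transcripts were unevenly spread over IR cells. At 8000 UMIs the variance of SUGCT over IR cells was 2.63 and 2.45 times its mean, and the tenth of cells with the most SUGCT held 55.3% and 45.9% of its UMIs, with up to 26 and 40 UMIs in a single cell before thinning. KATNBL1 was more uneven still in experiment 1, with a variance 3.80 and 2.67 times the mean and up to 36 and 26 UMIs in a cell. In UT cells, at lower levels, SUGCT had 1.68 and 1.44 times its mean and KATNBL1 1.32 and 2.66. Unevenness was thus not particular to IR cells. CSMD3 lay near even counting in both IR libraries, with 1.15 and 1.18 times the mean, and 90.4% and 83.9% of its positive IR cells held a single UMI. CCDC148 had 1.05 and 1.68 times the mean, nearer to even than CSMD3 in experiment 1 and farther from it in experiment 2. For comparison, CDKN1A had 3.70 and 3.93 times its mean in IR cells at a level far higher than that of any of the 7. IR cells held a UMI of 2 of the 7 genes in the median and of 3 or more in 35.5% and 35.3% of cells, against 0 in the median and 3.30% and 2.81% with 3 or more in UT cells. No cell held all 7, and the most in 1 cell was 6.

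Cells were classed by the share of their UMIs on S-phase and G2/M-phase gene lists, with cuts at the medians of all UT cells, as low-cycle (under both cuts) or cycling. Low-cycle cells made up 61.0% and 60.3% of IR cells and 29.4% and 27.5% of UT cells, and 16, 25, 30 and 30 cells lay within 10% of a cut, so the class is a range and not a cell type. UMIs were summed per library and class and compared inside libraries. Averaged over IR and UT, 4 of the 7 genes were higher in low-cycle than in cycling cells, against 14.4% of the 11036 genes tested, and none was lower. These were SUGCT (log2 fold change 1.66, SE 0.213, adjusted p = 3.75e-12 by the edgeR test), CSMD3 (1.30, SE 0.342, adjusted p = 0.00126), SP140 (1.22, SE 0.354, adjusted p = 0.00386) and KATNBL1 (0.70, SE 0.137, adjusted p = 9.62e-06). The UT part of the SP140 and CSMD3 averages rests on few UMIs: SP140 had 7 and 4 in low-cycle UT cells, against 6 and 4 in cycling UT cells, and CSMD3 had 10 and 3, against 2 and 9. SP140, CSMD3 and CCDC148 met the filter on low counts (a minimum of 10) through the IR libraries, where they are high. The averaged calls of SP140 and CSMD3, and the tally of 4 that holds them, are therefore given as a description. CCDC148 had 0.55 with a 95% interval of -0.27 to 1.37, ANOS1 had -0.16 with an interval of -0.58 to 0.26, and MARCH4 had -0.33 with an interval of -0.78 to 0.12, and these 3 did not pass.

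In IR libraries alone the same 4 genes passed, against 8.25% of all genes: SUGCT (1.00, SE 0.170), CSMD3 (1.09, SE 0.302), SP140 (1.05, SE 0.283) and KATNBL1 (0.96, SE 0.166). On the scale of UMIs summed over thinned cells and given as CPM, low-cycle IR cells had 135 and 145 SUGCT CPM, against 50 and 91.0 in cycling IR cells, and low-cycle UT cells had 20.4 and 29.3, against 4.26 and 5.33 in cycling UT cells. SUGCT was the only one of the 7 to pass in UT libraries alone (2.33, SE 0.388, adjusted p = 1.93e-07, against 7.81% of all genes). The low-cycle effect did not pass a test of the difference between IR and UT for any of the 7 genes, against 0.308% of all genes, and only SUGCT had an unadjusted p under 0.05 (IR minus UT -1.34, SE 0.427, adjusted p = 0.228 by edgeR). Compared within low-cycle cells alone, SUGCT was 6.61-fold and 4.93-fold higher in IR than in UT, ANOS1 4.87-fold and 2.80-fold, and MARCH4 4.02-fold and 4.28-fold, which is again a description. CSMD3 ran opposite ways in the UT libraries (12.8 in low-cycle against 1.06 in cycling cells in experiment 1, and 3.83 against 4.36 in experiment 2). Without UT experiment 1 the averaged CSMD3 and SP140 differences no longer passed (adjusted p = 0.617 and 0.108), and without UT experiment 2 that of KATNBL1 did not (0.104). In IR alone, without IR experiment 1, SUGCT alone passed, and without IR experiment 2, MARCH4 was lower in low-cycle cells (adjusted p = 0.0276).

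Among cycling cells, S and G2/M cells were also looked at apart, as a description. SUGCT in IR cells had 59.0 and 96.8 CPM in S and 43.98 and 88.1 CPM in G2/M, against 3.35 and 4.70 CPM in S and 5.08 and 6 CPM in G2/M in UT cells, where 3 to 6 UMIs stood behind each value. KATNBL1 was level between them, with 59.0 and 88.7 CPM in S and 60.2 and 86.1 CPM in G2/M of IR cells, against 34.6 and 36.7 CPM and 39.6 and 38 CPM in UT cells. ANOS1, the matrix protein gene, was highest in S cells of both IR libraries (65.97 and 68.6 CPM, against 49.7 and 53.6 CPM in low-cycle cells). MARCH4 differed between the experiments, with 94.9 CPM in G2/M cells of IR experiment 1 and 34.8 CPM in those of IR experiment 2.

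**Figure D3:**
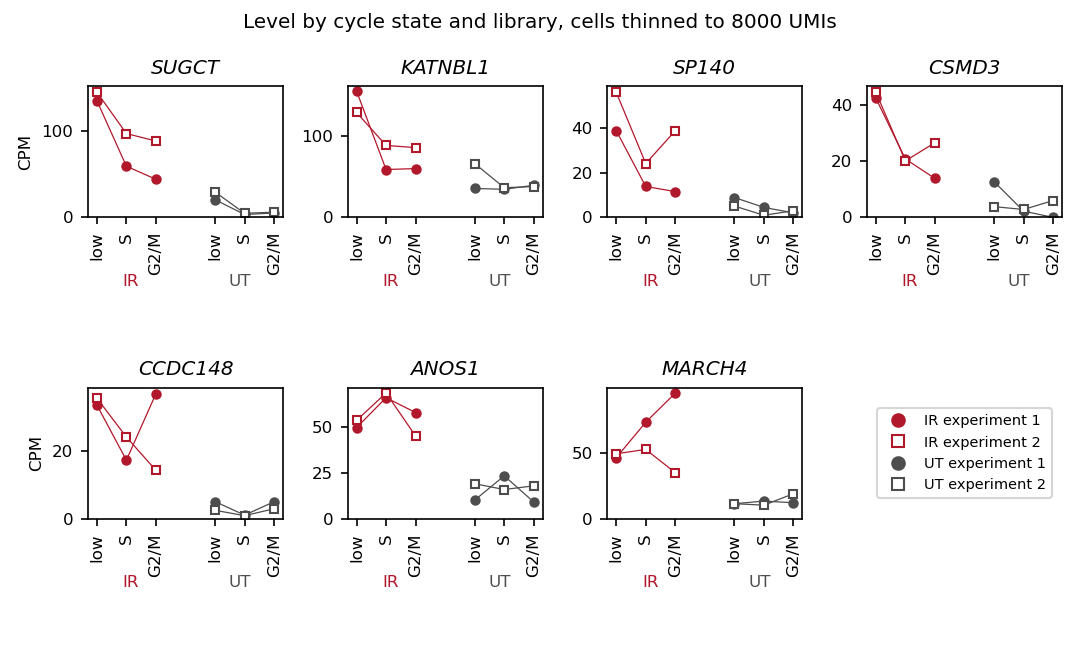
Level of each gene, as UMIs summed and scaled to CPM, in low-cycle, S and G2/M cells of each library at 8000 UMIs per cell (IR left, UT right, circles for experiment 1, open squares for experiment 2). SUGCT, KATNBL1, SP140 and CSMD3 are highest in low-cycle cells of both IR libraries, whereas MARCH4 in IR experiment 1 is 46.1 in low-cycle and 94.9 in G2/M cells.

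Each library was also divided at its own median share of UMIs on 40 p53 targets, none of them among the 7 genes. Averaged over IR and UT, 5 of the 7 genes were higher in cells above the median than in cells below it, against 4.58% of the 11452 genes tested. These were SUGCT (1.56, SE 0.225, adjusted p = 4.37e-10 by edgeR), KATNBL1 (0.80, SE 0.128, adjusted p = 4.20e-08), CSMD3 (1.31, SE 0.345, adjusted p = 0.00319), CCDC148 (1.504, SE 0.413, adjusted p = 0.00523) and SP140 (1.22, SE 0.350, adjusted p = 0.00842). The averages of CCDC148, CSMD3 and SP140 lean on UT libraries with few UMIs of these genes. CCDC148 had 10 and 6 UMIs in all per thinned UT library, 6.17 and 3.57 CPM above the median, against 1.46 and 0.691 CPM below it, and its log2 fold change was 2.05 in UT (SE 0.781, adjusted p = 0.138 by edgeR). In the UT libraries CSMD3 had 7.72 and 6.43 CPM above the median, against 1.46 and 2.07 CPM below it. SP140 had 8.49 and 2.86 CPM above it, against 1.46 and 2.76 CPM below. CCDC148, CSMD3 and SP140 met the filter on low counts through the IR libraries, where they are high. Their averaged calls, and the tally of 5 that holds them, are therefore given as a description. The SE of CCDC148 was smaller in the IR libraries than in the UT libraries. In IR libraries alone 4 passed, against 2.51% of all genes: SUGCT (1.02, SE 0.161), SP140 (1.12, SE 0.265), KATNBL1 (0.97, SE 0.156) and CCDC148 (0.95, SE 0.290), while CSMD3 had 0.71 (SE 0.271, adjusted p = 0.105). In UT libraries alone SUGCT passed (2.11, SE 0.427, adjusted p = 0.000118, against 1.96% of all genes).

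IR cells with more p53 target UMIs had 155 and 150 SUGCT CPM, against 51.5 and 99.4 in IR cells with fewer. KATNBL1 had 163 and 148, against 76.7 and 80.9, SP140 had 41.3 and 64.8, against 16.8 and 31.8, and CCDC148 had 48.0 and 33.0, against 16.8 and 24.6. ANOS1 and MARCH4, whose IR over UT ratios were close to those of p53 targets, did not pass: ANOS1 had 51.3 and 48.9, against 56.7 and 57.4 (averaged log2 fold change -0.24, 95% interval -0.62 to 0.14), and MARCH4 had 55.8 and 51.1, against 67.2 and 41.0 (-0.07, interval -0.47 to 0.34). Neither interval reached the averaged effect of KATNBL1. None of the 7 passed the test of a difference between IR and UT in this effect, against 0.585% of all genes, and SUGCT alone had an unadjusted p under 0.05 (-1.09, SE 0.474, adjusted p = 0.536 by edgeR). Cycle state moved with the division: 62.4% and 62.1% of low-cycle IR cells lay above the median, against 26.7% and 25.0% of cycling IR cells. Low-cycle cells alone were also divided at their own median, with 8850 genes tested. SUGCT (adjusted p = 0.00141 by edgeR) and KATNBL1 still passed on average and the other 5 did not. In UT libraries alone 2 of the 7 passed, and in IR libraries alone none did. The lowest adjusted p in IR by edgeR was 0.0512, for SP140, and 3 of the 7 had an unadjusted p under 0.05. No share over all genes was set beside these IR and UT counts. For the average, the count over all genes is given at the end. On average over IR and UT, leaving out UT experiment 1 ended the calls of CCDC148, CSMD3 and SP140 (adjusted p = 0.187, 0.163 and 0.655), and leaving out IR experiment 1 or UT experiment 2 ended those of CCDC148 and CSMD3 (0.0964 and 0.0504, and 0.0809 and 0.0506). In IR libraries alone, KATNBL1 was the only gene of the 7 to pass both without IR experiment 1 (adjusted p = 0.0132) and without IR experiment 2.

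**Figure D4:**
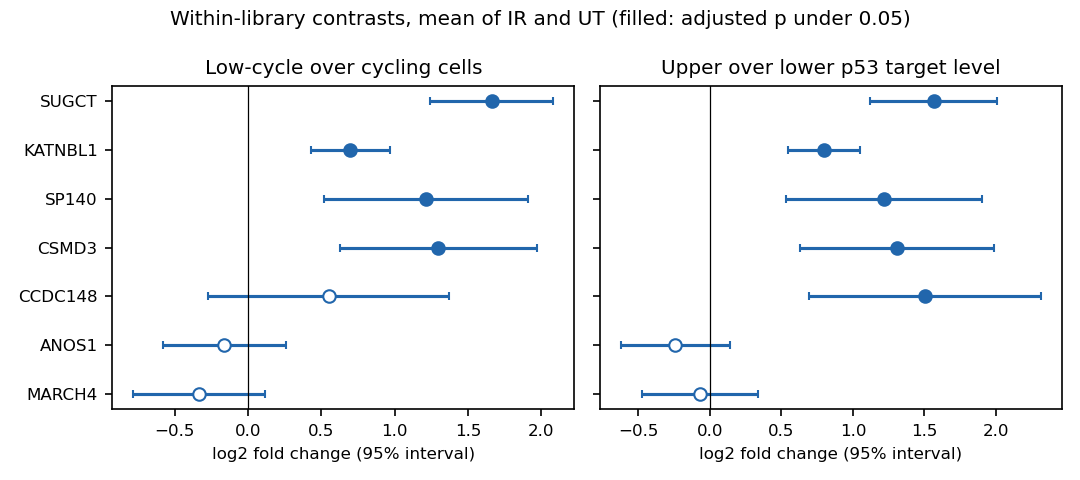
Log2 fold change with its 95% interval for low-cycle over cycling cells (left) and for cells above over below the median p53 target share (right), averaged over IR and UT, with filled points at adjusted p under 0.05. SUGCT has 1.66 and 1.56, and ANOS1 (-0.16 and -0.24) and MARCH4 (-0.33 and -0.07) have intervals that hold 0 in both.

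Across single irradiated cells the correlations were weak, and they are given as a description over 231 and 232 cells of 1 library each. The points share their library and a fixed depth of 8000 UMIs. Pearson's r of SUGCT was 0.21 and 0.16 with CDKN1A, 0.16 and 0.14 with MDM2, and 0.29 and 0.19 with the summed p53 target share, where 6685 genes in at least 20% of IR cells had a median r of -0.006 and -0.003 and a 95th percentile of 0.161 and 0.141. KATNBL1 had 0.20 and 0.23 with the p53 target share, SP140 0.19 and 0.15, CSMD3 0.20 and 0.06, and CCDC148 0.19 and 0.04. ANOS1 had -0.12 and -0.002, and MARCH4 had -0.03 and 0.02. With the summed share of 29 interferon-response genes, SP140 had r of -0.04 and 0.16 (Spearman 0.086 and 0.172). No background over all genes was set beside this share, and a link was not tested. Of the 29 genes 23 were tested, and 7 of these were higher in IR and none lower, against 1.63% higher over all genes (15 of the 23 with the replicate block).

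The gene most like each across irradiated cells was picked as the highest among 6684 genes by the lower r of the 2 IR libraries. For SUGCT, SP140 and CCDC148 it was the same long non-coding RNA, LINC00520. Its r was 0.33 and 0.28 with SUGCT, 0.34 and 0.31 with SP140, 0.30 and 0.28 with CCDC148, and 0.21 and 0.27 with KATNBL1, but 0.02 and 0.08 with CSMD3, -0.04 and 0.02 with ANOS1 and -0.05 and -0.06 with MARCH4. LINC00520 itself had 103 and 79.3 CPM in the IR libraries, against 5.97 and 3.82 CPM in the UT libraries. SUGCT was the gene nearest to KATNBL1, ahead of LINC00520, and KATNBL1 was the next nearest to SUGCT, with 0.28 and 0.23. The other genes nearest to each were MYLK for SUGCT, CALCOCO1 and KATNBL1 for SP140, MAFK and BEX2 for CCDC148, and ANKRD1 for KATNBL1, with lower r values from 0.195 to 0.217. CSMD3 was nearest to STX1A (0.22 and 0.24), ATP6AP1 and CDKN1A. ANOS1 was nearest to MICAL2 (0.22 and 0.19), ASPH and SEMA7A, and MARCH4 to CORO2A (0.23 and 0.15), LINC02802 and ADAM12.

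**Figure D5:**
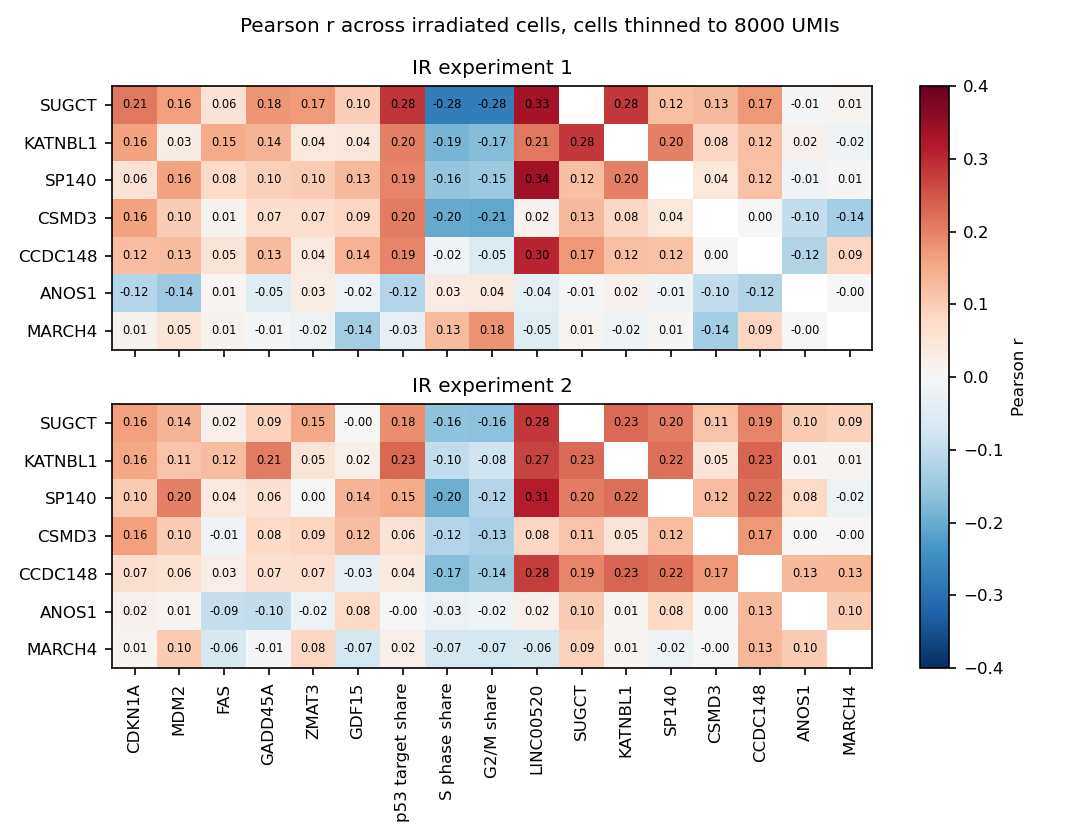
Pearson's r across irradiated cells of each library at 8000 UMIs, for each of the 7 genes (rows) with p53 targets, summed shares, LINC00520 and one another (columns). SUGCT, KATNBL1, SP140 and CCDC148 have r of 0.21 to 0.34 with LINC00520 in both libraries, and ANOS1 and MARCH4 have -0.06 to 0.02.

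Relatives of the 7 genes, on lists drawn up by family and pathway with earlier results of these data known, were read from the fit across all genes, where 1.63% of genes were called higher. On lists this short, few or no calls do not set the relatives apart from other genes. Beside SP140, SP110, the nuclear body protein on the opposite strand, was higher in IR, with 52.3 and 52.4 CPM in IR, against 20.8 and 22.6 CPM in UT (log2 fold change 1.19, SE 0.164, adjusted p = 0.0244 by edgeR), a call that ended without IR experiment 1 (adjusted p = 0.0725), IR experiment 2 (0.0514) or UT experiment 1 (0.0527). SP100 had 111 and 77.6 CPM in IR, against 107 and 61.4 CPM in UT, and the close copy SP140L had 29.5 and 34.1 CPM, against 24.7 and 22.03 CPM, and neither passed. Among partners of anosmin-1, FGF2, a growth factor that signals through FGFR1, was higher, with 77.0 and 93.4 CPM in IR, against 31.5 and 36.6 CPM in UT (1.24, SE 0.179, adjusted p = 0.0273 by edgeR), a call that ended without IR experiment 2 (adjusted p = 0.0558) or UT experiment 1 (0.0527). The other 9 of the 10 tested genes of that list, FGFR1 to FGFR4 among them, did not pass. None of the 3 tested katanin genes passed: KATNA1, a severing subunit, had 24.8 and 28.0 CPM in IR, against 28.6 and 27.5 CPM in UT. None of the 9 other MARCH ligases tested, of CSMD1 and CSMD2, or of the 10 genes of glutarate and lysine breakdown passed (1, 1 and 1 gene with an unadjusted p under 0.05). With the replicate block, 2094 of 14647 genes were higher and 1883 lower. In that fit SP110 (1.19, adjusted p = 7.41e-11 by edgeR) and FGF2 (1.24, adjusted p = 4.95e-14 by edgeR) were called higher. MARCH2 (0.63), MARCH5 (0.32), CSMD1 (0.53) and FLRT3 (0.91) were also called higher in it, and MARCH9 (-0.44), HS6ST1 (-0.56) and ALDH7A1 (-0.41) lower. Counts at overlapping genes were few apart from SP110: CCDC148-AS1, antisense to CCDC148, was at 0 in all 4 libraries, and AC004988.1, a non-coding gene on the opposite strand within SUGCT, had 9 and 6 counts in IR and 0 and 0 in UT.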

How the data were processed

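The members and gene lists were chosen with earlier results of these data known. Single U-2 OS cells were sequenced by SORT-seq and CEL-Seq2, and reads were aligned by STARsolo (submitters' processing notes) to GRCh38 without introns, multi-gene reads or a UMI cut-off, per the study's methods. The deposited values are expected counts: the authors' tables hold UMI numbers corrected for collisions in a pool of 4096 UMIs, which was checked on each value (100% lay on this correction). Plain counts had been assumed when the tests were planned. UMIs were recovered by inverting the correction, and sums were rounded. Spike-ins were left out.

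IR against UT used edgeR 4.0.16 (R 4.3.3) on counts summed per library (TMM, filterByExpr, robust quasi-likelihood test), with group as the only term. Genes were adjusted over the whole table. Cells were thinned to 8000 UMIs for shares and for the contrasts inside libraries, where library was a term. The experiment numbers in the titles pair the libraries, and deviations from group means correlated between same-numbered libraries (r = 0.635 over 14647 genes). The fits were tested on simulated data. Named genes were the 7 members, 6 p53 targets, relatives on 6 lists, and for each member the 3 genes with the highest lower r of the 2 IR libraries among 6684 genes found in at least 20% of IR cells. Alternatives were the replicate block, DESeq2 1.42.0 and its size factors, no filter, equal cells, other depths, other cuts and each library left out. Intervals for shares are Clopper-Pearson.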

Additional observations from a re-analysis of the deposited data

How the results depend on the processing

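All 7 genes were called higher in IR under each of the 10 alternatives to the IR against UT fit, which their choice had favoured. The count of genes higher and lower in IR was 239 and 124 as reported, 2094 and 1883 with the replicate block, 929 and 584 without a filter, 146 and 59 with cells thinned, 90 to 158 and 18 to 78 with 1 library left out, and 220 lower by DESeq2. In low-cycle against cycling cells, averaged, 1587 genes were higher as reported, 2623 without thinning and 477 with no replicate block. Members higher there numbered 4 as reported, 2 with no replicate block and 2 to 4 with 1 library left out. In IR alone they numbered 4, 0 with no replicate block and 1 to 4 with 1 library left out. In UT alone they numbered 1, 3 without thinning, 2 at 5000 UMIs and 1 to 2 with 1 library left out. For p53 target level, averaged, 525 genes were higher as reported, 976 without thinning, 229 at 5000 UMIs, 344 with cells divided by CDKN1A and MDM2, 141 in low-cycle cells alone, 53 with no replicate block and 240 to 368 with 1 library left out. Members numbered 5 as reported, 3 at 5000 UMIs, 2 in low-cycle cells alone, 2 with no replicate block and 2 to 5 with 1 library left out. In IR alone they numbered 4, 2 at 5000 UMIs, 0 in low-cycle cells alone, 0 with no replicate block and 1 to 4 with 1 library left out. In UT alone they numbered 1, 4 without thinning, 0 at 5000 UMIs, 2 by CDKN1A and MDM2, 2 in low-cycle cells alone, 0 with no replicate block and 0 to 1 with 1 library left out. No share over all genes was set beside the members called in IR or UT alone under these alternatives. Nothing is read from those counts. The causes of these shifts were not tested. Genes that missed the threshold changed sign. In low-cycle over cycling cells, averaged, ANOS1 had log2 fold changes of 0.0676 without thinning, 0.0661 at 5000 UMIs and -0.413 to 0.00602 with 1 library left out, and MARCH4 -0.592 to 0.00104 with 1 library left out. In IR alone ANOS1 had 0.0281 at 5000 UMIs and -0.308 to 0.025 with 1 library left out, and MARCH4 -0.909 to 0.277 with 1 library left out. For p53 target level, averaged, ANOS1 had 0.0945 at 5000 UMIs, and MARCH4 had 0.0407 without thinning, 0.132 at 5000 UMIs, 0.401 in low-cycle cells and -0.202 to 0.0936 with 1 library left out. In IR alone MARCH4 had 0.0823 without thinning and -0.284 to 0.308 with 1 library left out. UT libraries held as few as 21 summed counts of a gene, so small effects inside UT were not detectable at this depth, and 2 libraries per group limit every test.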
